A study of Mus musculus with 185 samples.

Results

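Cytosolic ribosomal proteins are the proteins that, together with the ribosomal RNAs, build the 2 subunits of the ribosome that translates nuclear-encoded mRNAs. The genes were taken by symbol: protein-coding genes whose symbol starts with Rpl or Rps followed by a digit, plus Rpsa, Rplp0, Rplp1 and Rplp2, without the Rps6k kinases and without symbols marked as pseudogenes. This rule found 90 of the 57010 genes in the counts. They are 46 proteins of the large subunit, 31 of the small subunit, 12 paralogs and retrogenes of these (such as Rpl3l or Rps27rt), and Rps19bp1, which the rule takes although it codes for a protein that binds RPS19 and is not part of the ribosome.

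Total RNA with the ribosomal RNA removed was sequenced from 5 dissected brain regions of each of 37 mice to ask how a short change of feeding alters expression in the brain. All were male C57BL/6 J mice, 8 weeks old. In the 16 h study, mice were housed in pairs (9 cages, 3 per diet) and either kept normal chow, were moved to a high-fat diet (HFD), or had the food removed overnight, with 6 mice in each group. In the 24 h study, mice were housed singly and were given chow (9 mice) or fasted (10 mice); the samples of 1 more chow mouse had been lost. The regions shared by both studies were hypothalamus, hippocampus, superior colliculus and inferior colliculus. The fifth was a piece of frontal cortex at 16 h and zona incerta at 24 h. Duration, housing, sequencing run and the fifth region therefore differed together between the studies and cannot be told apart. The count columns name the mouse but not the region, so the 5 columns of a mouse were added up and the mouse was the unit of every comparison. A mouse then had between 57962237 and 161577364 counts. Levels are given as counts per 1000000 counts of a mouse (CPM), and fold changes on the log2 scale. In such bulk samples, fewer cells of a type and less RNA per cell cannot be told apart. In all groups every one of the 7 neuronal markers looked at (Snap25, Syt1, Rbfox3, Slc17a7, Slc17a6, Gad1 and Gad2) was detected.

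Ribosomal proteins are made in nearly equal numbers, because each ribosome holds 1 copy of most of them, and their mRNAs are among the most abundant of any cell. These mRNAs carry a 5′ terminal oligopyrimidine (TOP) tract: transcription starts at a C that is followed by a run of C and T (U in the RNA). When nutrients or growth factors are scarce, the kinase complex mTORC1 is less active, and the RNA-binding protein LARP1 holds TOP mRNAs out of translation while protecting them from decay. Control by food is therefore known mainly at translation, a step that RNA counts do not measure. In brain, neurons are rich in ribosomes and translate part of their mRNAs in dendrites and axons.

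The starts of these genes were read from the RefSeq promoter table (build GRCm38.p6) as 10 bases before the annotated start and 20 bases from it on. The table held 67 of the 90 members. A C at the annotated start followed by at least 4 bases that are each C or T, read on the strand of the gene, stood at the start of 14 of the 67 genes (20.9%). It stood at the start of 813 of all 27025 genes in the table (3.01%). Within 20 bases of the start it was found for 80.6% of members and 53.3% of all genes. The windows below are those of genes whose values are described further on, with the run of C and T from the start on in capitals. They show the motif in the kinase substrate Rps6, in Rpl38 and Rplp2, in Rps18 and Rps10, and in Rps27 beside its intronless retrogene Rps27rt.
Rps6 (chr4:86857348-86857377, minus strand): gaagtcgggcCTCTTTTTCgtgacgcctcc
Rpl38 (chr11:114668570-114668599, plus strand): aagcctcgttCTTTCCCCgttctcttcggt
Rplp2 (chr7:141447641-141447670, plus strand): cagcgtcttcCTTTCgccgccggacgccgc
Rps18 (chr17:33955646-33955675, minus strand): cacttccgctCTCTCTTCCacaggaggcct
Rps10 (chr17:27635225-27635254, minus strand): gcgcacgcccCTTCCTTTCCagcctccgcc
Rps27 (chr3:90213629-90213658, minus strand): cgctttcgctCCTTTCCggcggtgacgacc
Rps27rt (chr9:114982720-114982749, minus strand): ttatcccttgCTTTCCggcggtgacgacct
The runs were 9 bases in Rps6 and Rps18, 10 in Rps10, 8 in Rpl38, 7 in Rps27, 6 in Rps27rt and 5 in Rplp2. A further 2 members had longer runs: 11 bases in Rpl35 and 13 in Rpl15. The match is a description of these letters and says nothing of where transcription started in these mice.

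The ribosomal protein genes were not measured at one level, although their products are needed in equal numbers. Mean CPM over all mice was highest for Rpl4, a protein of the large subunit, at 251. Per kb of coding sequence, the median of the 77 subunit genes was 141.4 CPM. Gene counts also hold reads from untranslated parts of exons, which the coding length leaves out. Levels per kb can therefore be too high for genes with a short coding sequence, and the order of genes and subunits on this scale is approximate. The highest level per kb was that of Rpl41 (851), the smallest of the ribosomal proteins, followed by Rplp1 (578) of the acidic stalk, which recruits elongation factors, and by Rps14 (338), a protein of the small subunit. The small subunit had a median of 155.9 CPM per kb and the large subunit of 122.8. The lowest of the subunit genes were Rpl24 (1.61 CPM per kb), Rps10 (4.96), Rpl13a (11.0) and Rpl23a (15.5). Only uniquely mapped reads had been counted, and 303 pseudogenes of these genes are annotated. Rpl23a has 14 pseudogenes that carry its name, Rps10 has 4, Rpl13a 1 and Rpl24 0, against a median of 2 over the subunit genes. Over the 77 genes, level per kb and number of such pseudogenes had a Spearman rho of -0.289, a description over genes that share libraries. The pseudogenes themselves held 1.02% as many counts as the members. Rpl24 and Rpl13a are also among the 6 members with an exon that overlaps a gene on the same strand. These genes are Gm28037 for Rpl24, and Gm45713 and Mir5121 for Rpl13a. The part of such overlaps in the low levels was not tested. The order of levels per kb was alike in both studies (Spearman rho 0.874 over 87 members, genes that share the same libraries within a study).

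**Figure D1:**
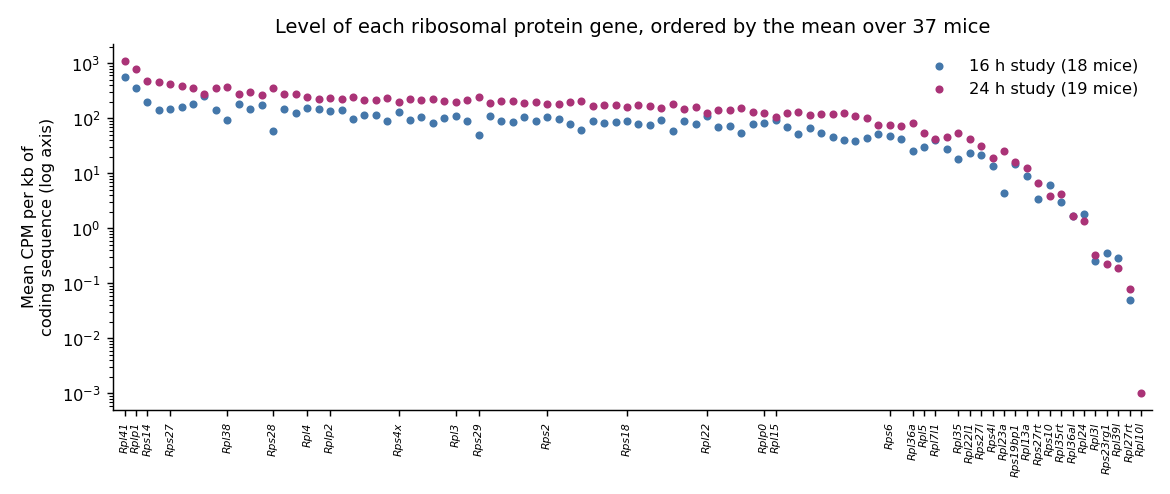
Mean level of each ribosomal protein gene in CPM per kb of coding sequence (vertical log axis), with a point for the 16 h study and one for the 24 h study, ordered by the mean over all 37 mice and named for genes described in the text. Most genes lie near the median of 141.4, and Rpl23a, Rpl13a, Rps10, Rpl24 and most paralogs stand at the low end on the right.

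The paralogs, which in other tissues can take the place of the canonical protein, were mostly far below their partners. Rpl7l1, a nucleolar relative of Rpl7 with a part in subunit assembly, had 41.2 CPM per kb of coding sequence. Rpl22l1 had 33.4, against 118.3 for Rpl22. The p53-regulated Rps27l had 26.6, against 286 for Rps27. Rps4l had 16.3, against 163.1 for the X-linked Rps4x. Rps27rt had 5.14, Rpl35rt 3.63 and Rpl36al 1.68, the last against 55.0 for Rpl36a. Rpl3l, the form of RPL3 known from heart and skeletal muscle, had 0.29 CPM per kb, against 153.1 for Rpl3. The Rps23 retrogene Rps23rg1 had 0.28. Rpl39l, Rpl27rt and the testis gene Rpl10l (2 counts in all) were too low to enter any test. The retrogenes and their parents have similar sequences, so their low counts are uncertain. Exons of 42 members overlap another annotated gene, 40 of them a gene on the opposite strand and 6 a gene on the same strand. The strand setting of the counts is not given in the sources used here, so reads of such partners could not be separated.

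Ribosomal protein mRNAs made up a small and, at 16 h, steady share of all counts. In the 16 h study the share was 0.361% to 0.412% in chow mice (median 0.388%), 0.380% to 0.416% in fasted mice (median 0.394%) and 0.366% to 0.411% in HFD mice (median 0.392%). The 3 groups overlapped over nearly their whole range. In the 24 h study the share was 0.529% to 1.21% in chow mice (median 0.670%) and 0.535% to 0.982% in fasted mice (median 0.794%). These groups overlapped as well, with means of 0.771% ± 0.270 (SD, n = 9) and 0.768% ± 0.141 (SD, n = 10), but mice of the same diet differed by more than a factor of 2.

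The wide spread at 24 h went with single count columns, not with whole mice. Of the 95 columns of that study, 26 stood apart from the rest: 12 of 45 in chow and 14 of 50 in fasted mice. At 16 h 4 of 90 columns did. A column was set apart when it had fewer than 1000000 counts, fewer than 16000 genes detected in a draw of 500000 counts, or, at 24 h, a correlation under 0.91 with the median profile of the study. That profile held protein-coding genes other than the members and those of the mitochondrial genome. The submitters' labels mark 25 libraries of the 24 h study as failing an alignment criterion, and their number per mouse equalled the number of columns set apart in 18 of the 19 mice. Nearly all of these libraries belong to a second sequencing run of that study. Per the paper, a block of its samples had no detectable RNA, was run on a flowcell of its own and was discarded. Here these libraries stay in the sums of all columns. In 24 of the 26 columns the ribosomal protein share, at 0.848% or more, exceeded that of every other column. Over all 26 the share ran from 0.417% to 6.37% (median 2.75%), against 0.386% to 0.681% (median 0.489%) in the 69 columns kept. Counts of the mitochondrial genome moved the same way, with medians of 21.7% in the columns set apart and 8.89% in those kept. So did the short nuclear mRNAs of oxidative phosphorylation (medians 0.894% and 0.421%), while fewer genes were detected at equal depth (medians 15056 and 18158). The part of RNA quality in these differences was not tested.

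**Figure D2:**
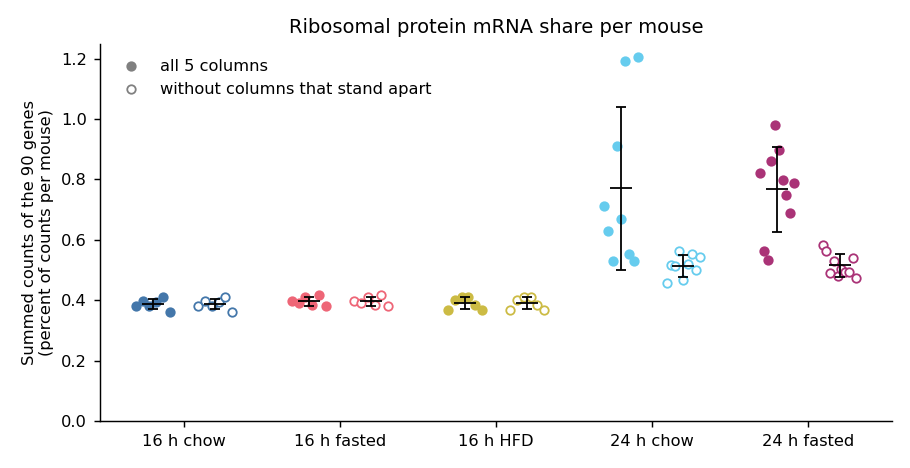
Share of a mouse's counts that fell on the 90 ribosomal protein genes (percent), by group, for all 5 columns and without the columns that stood apart. Filled points are mice with all columns, open points the same mice without those columns, and bars are group means ± SD. At 24 h the mean is 0.771% on chow and 0.768% after the fast with all columns, and 0.515% in both diets without those that stood apart.

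Nearly all ribosomal protein genes were higher in the columns set apart, but not to the same degree. In the 18 mice that had columns of both kinds, the median CPM of a subunit gene was 5.36 times as high in the columns set apart, and 74 of 77 genes were more than 2 times as high. The ratio was highest for Rps14 (8.17), and it was 7.18 for Rpl41 and 4.27 for Rps6. It was lowest for Rpl24 (0.403), and also low for Rps10 (0.813) and Rps15a (1.88). The ratio was 2.92 for Rpl13a and 4.29 for Rpl23a, which were also low in level. Among the paralogs, Rpl3l (0.891), Rpl7l1 (1.06) and Rps4l (1.15) were near equal in both kinds of column. These ratios are descriptions, since the rule that set the columns apart was chosen after seeing the data. The members did not enter the correlation with the median profile, but they did enter the total counts and the genes detected.

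**Figure D3:**
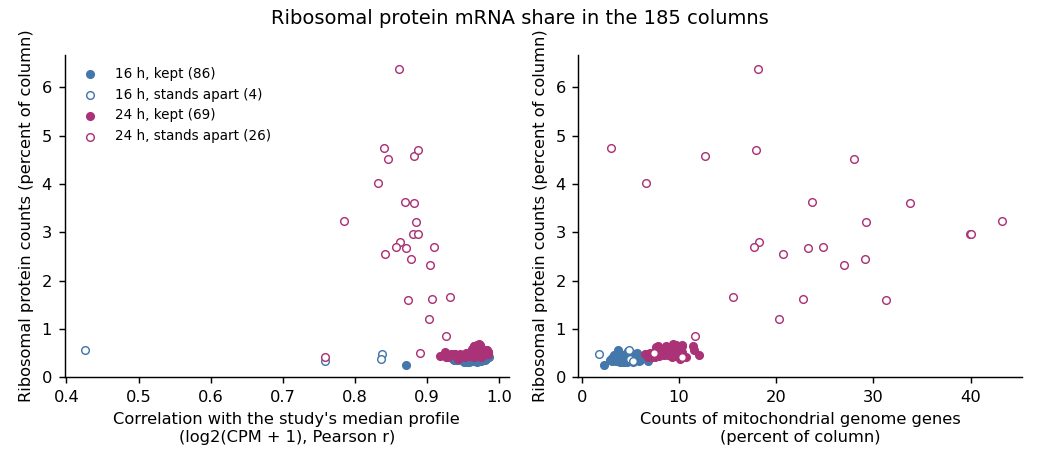
Share of ribosomal protein counts (percent, vertical axes) in each count column against the column's correlation with the median profile of its study (left) and against its share of mitochondrial genome counts in percent (right). Filled points are columns kept and open points columns set apart; the kept 24 h columns sit between 0.386% and 0.681%, and 24 of the 26 open 24 h points lie above them.

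Left out of the sums, these columns took the spread with them. The share then was 0.456% to 0.564% in 24 h chow mice (median 0.515%) and 0.475% to 0.582% in 24 h fasted mice (median 0.498%). The median SD of log2 CPM within a group, over the 77 subunit genes, was 0.43 with all columns, against 0.14 for 5640 genes of like level. It was 0.12 without the columns set apart, against 0.13, and 0.08 at 16 h. The genes also moved together from mouse to mouse: the median correlation of log2 CPM between 2 subunit genes was 0.958 at 24 h with all columns, 0.702 without the columns set apart (19 mice each) and 0.601 at 16 h (18 mice), values that share library, depth and normalization. The 24 h values below use all columns, and the members' medians and the counts of calls are also given without those set apart, an alternative chosen after seeing the data.

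The studies also differed in level. Over chow mice and kept columns, subunit genes were 1.34 times as high at 24 h as at 16 h in the median, and 71 of 77 were above 1. The ratio ran from 0.655 for Rps10 to 4.01 for Rpl23a, and it was 4.00 for Rps28, 3.34 for Rps29 and 1.13 for Rps6. For Rps29 the 16 h chow mice had 12.3 to 14.7 CPM and the 24 h chow mice, in the kept columns, 41.4 to 49.8 CPM. Across the 77 genes the ratio had a Spearman rho of -0.326 with coding length, a description over genes. No test was made, since housing, region, run and read length changed with the study.

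A fast of 24 h left the ribosomal protein genes close to their chow levels, with Rpl3l as the exception. Of 87 members tested, 1 (Rpl3l) rose and 0 fell by edgeR's quasi-likelihood test at a Benjamini-Hochberg adjusted p under 0.05 over all genes, where 11.4% of the 29011 genes tested were called and 5.78% were called higher. At an unadjusted p under 0.05 the count of members was again 1, against 24.2% of all genes. Low p-values were harder to reach for the members, since their spread with all columns was wide (median SD 0.43 over the subunit genes, against 0.14 for genes of like level). In the kept columns that count was 14 of 86 (16.3%, against 26.0% of all genes). The median log2 fold change of the members was 0.04, against -0.00 over all genes, and 62 of 87 members were above 0. This sign rests on the scaling: with library totals in place of TMM factors the median was -0.01 and 34 of 87 members were above 0, while the median of all genes moved to -0.06 and the calls over all genes from 1676 higher and 1631 lower to 946 higher and 1848 lower. Without only the columns of low counts, the median was 0.14 and 83 of 86 members were above 0, with 1 member called. The large subunit had a median of 0.05 and the small subunit of 0.03, with 0 of 46 and 0 of 31 called. For 82 of 87 members the 95% interval of the fold change lay within 1.5-fold in either direction. The other 5 were Rpl3l, Rps14, Rps21, Rps23rg1 and Rpl35rt. DESeq2 also called 1 of 89 members.

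Rpl3l lies at chr17:24946751-24955119 (plus strand, GRCm39), downstream of the ribosomal protein gene Rps2. Its level was 0.141 to 0.427 CPM in 24 h chow mice (median 0.276) and 0.312 to 0.707 CPM in 24 h fasted mice (median 0.496). The groups overlapped, with 8 of 10 fasted mice above every chow mouse and 6 of 9 chow mice below every fasted mouse. The log2 fold change was 0.84 ± 0.17 (SE), or 1.79-fold, with an edgeR adjusted p of 0.0018. Without the columns set apart it was 0.87 ± 0.16, with an edgeR adjusted p of 0.0012. A mouse had only 13 to 47 counts of Rpl3l on chow and 40 to 71 after the fast. In the kept columns every one of the 33 chow and 36 fasted columns had at least 1 count. Rpl3l was called with each of the 19 mice left out in turn (log2 fold change 0.77 to 0.92) and in 10 of 10 fits with other settings, among them DESeq2 and limma.

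**Figure D4:**
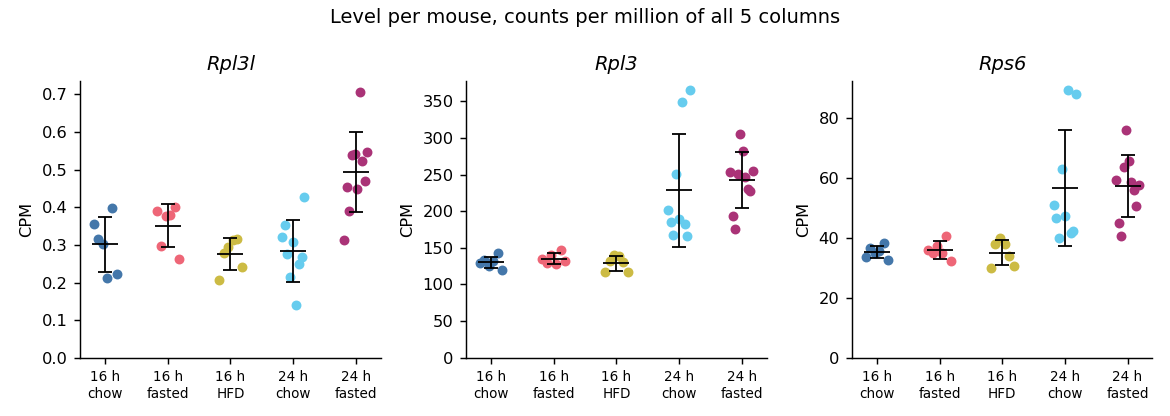
CPM of Rpl3l, of its partner Rpl3 and of Rps6 in each mouse (points), by group, with all 5 columns and bars for mean ± SD. In the 24 h study 8 of 10 fasted mice lie above all chow mice for Rpl3l, while for Rpl3 and Rps6 every fasted mouse lies below the highest chow mouse.

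The genes beside Rpl3l differed among themselves. Msrb1, a methionine sulfoxide reductase and the next gene on the same strand (chr17:24955614-24961752), rose by a log2 fold change of 0.40 (edgeR adjusted p = 0.036). Rps2 had a log2 fold change of 0.08 (edgeR adjusted p = 0.87) and Ndufb10, a subunit of complex I, of -0.01 (0.97). The testis gene Rnf151 had -0.47 (edgeR adjusted p = 0.12) and the snoRNA host gene Snhg9 0.39 (0.31). Without the columns set apart, Msrb1 was at 0.37 (edgeR adjusted p = 0.048), and Rps2, Ndufb10, Rnf151 and Snhg9 were again not called. The annotated gene Gm64443 overlaps Rpl3l on the opposite strand and is not analysed here. Rpl3 itself, which sits in the same place of the ribosome, had 166.5 to 365 CPM on chow (median 189) and 175.7 to 305 CPM after the fast (median 249), and a log2 fold change of 0.14 ± 0.17 (edgeR adjusted p = 0.69).

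The other members named by rule stayed without a call. Rps23rg1 had 0.064 to 0.165 CPM on chow and 0.032 to 0.167 CPM after the fast, with a log2 fold change of -0.43 ± 0.25 (edgeR adjusted p = 0.32); it had 2 to 22 counts in a mouse. Rps4l, the intronless relative of Rps4x, had a log2 fold change of 0.14 ± 0.11 (edgeR adjusted p = 0.51). Rps6, the small-subunit protein phosphorylated by S6 kinases below mTORC1, had 40.0 to 89.3 CPM on chow (median 47.3) and 40.6 to 75.9 CPM after the fast (median 58.2), and a log2 fold change of 0.07 with a 95% interval of -0.29 to 0.44. The acidic stalk genes Rplp0, Rplp1 and Rplp2 had log2 fold changes of 0.15, 0.03 and 0.05. Rpl5 and Rpl11, which with 5S rRNA can bind the p53 regulator MDM2, had 0.05 each. Rpsa, also known as the laminin receptor, had -0.02, and the Diamond-Blackfan anaemia genes Rps19 and Rps29 had 0.01 and -0.13. Rpl26 had 0.01, Rpl38 -0.01, Rpl13a -0.09 and Rps14 0.11. Of the further partners and paralogs, Rpl7 had 0.12, Rpl7l1 0.06, Rpl10 -0.01, Rpl22 0.07, Rpl22l1 -0.01, Rpl36a -0.05, Rpl36al 0.04, Rpl39 -0.04, Rps4x 0.05, Rps27 0.07 and Rps27l -0.02. In the kept columns, Rps29 was at 0.06, Rpl38 at 0.07, Rpl39 at 0.05, Rpsa at 0.01, Rpl10 at 0.03 and Rpl22l1 at 0.03, all above 0 and not called. With all columns, both groups of mice overlapped in CPM for every tested member. The share of all genes with such overlap was not computed. Overlap is also likely from the wide spread of the subunit genes with all columns (median SD 0.43, against 0.14 for genes of like level).

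Without the columns set apart, the estimates at 24 h became tighter and small differences came within reach. The kept sums hold 3 to 5 columns of a mouse. By the labels, the failed libraries fell on different regions in different mice, and unequally in the 2 diets. The kept sums therefore compare unlike mixes of regions, and the part of this in the values was not tested. The median half-width of the 95% interval of a member's log2 fold change went from 0.38 to 0.11. Then 2 of 86 members were called, both higher after the fast, where 12.8% of 28314 genes were called and 6.62% called higher, and 14 of 86 had an unadjusted p under 0.05 (16.3%, against 26.0% of all genes). The second was Rps14, a protein of the small subunit: it had 89.6 to 119.01 CPM on chow and 105.5 to 122.2 CPM after the fast, with 5 of 9 chow mice below every fasted mouse. Its log2 fold change was 0.15 ± 0.04, or 1.11-fold (edgeR adjusted p = 0.022). The call was kept in 13 of 19 fits that each left out 1 mouse (log2 fold change 0.12 to 0.18) and lost without chow mouse 1423, 1431, 1451 or 1452 or fasted mouse 1424 or 1433, with edgeR adjusted p up to 0.079. It was also lost without mice 1423 and 1454 (edgeR adjusted p = 0.051). Per the paper, the superior colliculus samples of these mice were exchanged by mistake, and their metadata were corrected for it. In 1 fit, without chow mouse 1432, Rps18 was called as well. Low unadjusted p-values were also those of Rps28 (log2 fold change 0.15, edgeR adjusted p = 0.10) and Rpl36 (log2 fold change 0.13, edgeR adjusted p = 0.11).

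The whole module was also shifted by little when the columns set apart were left out. The median log2 fold change was 0.07, a fold of 1.05, against 0.00 over all genes, and 80 of 86 members were above 0. These values use TMM factors, and library totals were not tried on the kept sums. As a share of all counts in those sums, the members had a mean of 0.515% in both diets. The large subunit had a median of 0.07 and the small subunit of 0.07. Among the 6 values below 0 were those of Rpl13a (-0.12), which can leave the ribosome to repress inflammatory mRNAs, and of Rps10 (-0.10). For 85 of 86 members the 95% interval lay within 1.5-fold, the exception being Rpl3l. Leaving out each mouse moved the median between -0.03 and 0.17 with all columns and between 0.04 and 0.09 without those set apart.

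**Figure D5:**
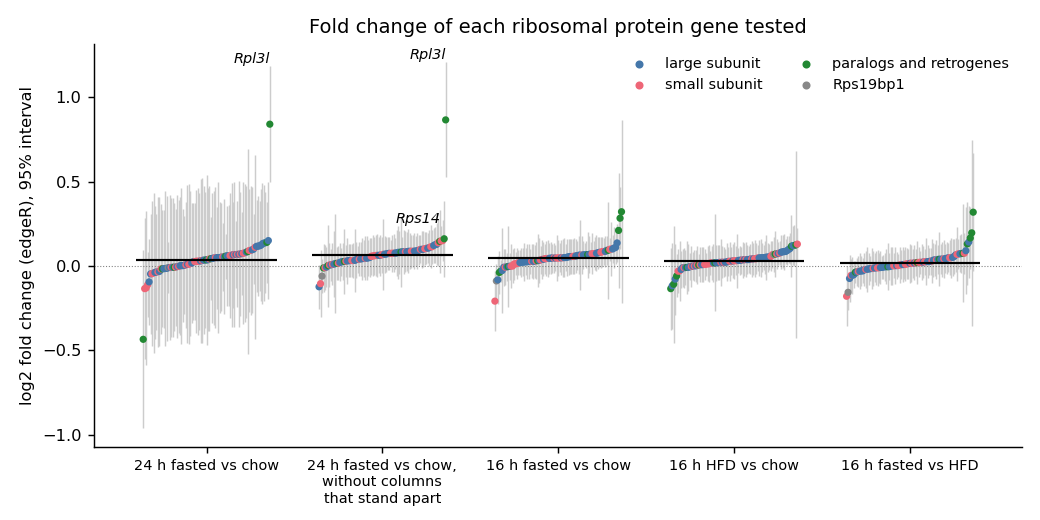
Log2 fold change of every tested ribosomal protein gene, for fasted against chow at 24 h, with and without the columns that stood apart, and for the 3 comparisons at 16 h. Points are genes coloured by class in order of their value, grey bars are 95% intervals and black lines are medians. Rpl3l stands at 0.84 and 0.87 at 24 h, Rps14 is named at 0.15, and the intervals are far narrower without those columns.

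Members with the TOP motif at the annotated start had medians close to those of members without it. At 24 h the median log2 fold change was 0.05 over the 14 genes that held it and 0.03 over 51 that did not. Without the columns set apart these medians were 0.07 over 14 and 0.06 over 50 genes, and for the 16 h fast they were 0.05 and 0.05. Rps6 had a log2 fold change of 0.06, Rpl38 of 0.07, Rplp2 of 0.07, Rps18 of 0.10, Rps10 of -0.10, Rps27 of 0.14 and Rps27rt of 0.15 at 24 h in the kept columns, none of them called.

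A fast of 16 h gave no call in any ribosomal protein gene, and no call in any gene. By edgeR's quasi-likelihood test 0 of 87 members and 0 of 29746 genes (0%) had an adjusted p under 0.05, and DESeq2 called 19 genes, 0 of them members. At an unadjusted p under 0.05 there were 8 members, 7 higher and 1 lower in fasted mice (9.20%, against 7.62% of all genes). The median log2 fold change was 0.05, against -0.00 over all genes, with 75 of 87 members above 0. The 95% interval lay within 1.5-fold for 86 of 87. The lowest p-value was that of Rps27rt, with 0.716 to 0.900 CPM on chow (median 0.771) and 0.842 to 1.09 CPM after the fast (median 0.905). Its log2 fold change was 0.28 ± 0.09 (edgeR adjusted p = 0.57), and the groups overlapped. Rps18, a protein of the small subunit, had 39.3 to 43.6 CPM on chow (median 39.9) and 40.9 to 44.02 CPM after the fast (median 42.8), with a log2 fold change of 0.10 ± 0.03 (edgeR adjusted p = 0.58). Rpl22 had 38.9 to 44.4 CPM and 41.4 to 49.0 CPM, a log2 fold change of 0.14 ± 0.05 (edgeR adjusted p = 0.60). The highest mouse on chow overlapped the fasted mice for both genes. Rps10 was the 1 member with a low p-value and a value below 0, at -0.21 ± 0.08 (edgeR adjusted p = 0.60).

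Rpl3l was measured at 16 h at the same low level, and no difference was called. It had 0.213 to 0.399 CPM on chow (median 0.310), 0.262 to 0.401 CPM after the fast (median 0.378) and 0.208 to 0.317 CPM on HFD (median 0.286). The log2 fold change of fasted against chow was 0.21 with a 95% interval of -0.13 to 0.55 (edgeR adjusted p = 0.81). Rps6 had 0.05 (interval -0.09 to 0.18), Rps14 0.09 (0.01 to 0.17), Rpl3 0.08 (-0.03 to 0.18), Rpl5 0.07 (-0.01 to 0.15), Rpl11 0.02 (-0.09 to 0.14) and Rplp0 0.05 (-0.03 to 0.13).

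The high-fat diet for 16 h likewise gave no call. By edgeR 0 of 87 members and 0 of 29746 genes (0%) passed, and DESeq2 called 5 genes, 0 of them members. At an unadjusted p under 0.05 there were 9 members, all higher on HFD (10.3%, against 9.80% of all genes). That count was 1 with library totals in place of TMM factors and 4 with the counts of each cage added up. The median log2 fold change over all members was 0.03, against -0.01 over all genes, and -0.00 against -0.04 with library totals in place of TMM factors, with 71 and 42 of 87 members above 0. The lowest p-value was that of Rps2, with 80.2 to 98.6 CPM on chow (median 87.9) and 88.5 to 99.5 CPM on HFD (median 93.98), a log2 fold change of 0.13 ± 0.05 (edgeR adjusted p = 0.50). Rplp0, the base of the stalk, had 69.5 to 81.3 CPM on chow and 76.4 to 79.96 CPM on HFD (0.10 ± 0.04, edgeR adjusted p = 0.50). Rpl13 had 53.7 to 62.1 CPM on chow and 58.0 to 63.2 CPM on HFD (0.09 ± 0.04, edgeR adjusted p = 0.51). In all 3 genes the groups overlapped. Rplp1 had 0.10, Rplp2 0.09 and Rpl3l -0.11 on the log2 scale. Both diets were set against the same 6 chow mice, so that these values and those of the fast share their controls.

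With each mouse as a unit, fasted against HFD had the most genes called of the 16 h comparisons, yet no member was called. Diets were assigned by cage in that study, and with the counts of each cage added up no gene was called here. Of 29746 genes 65 passed (0.219%), and 0 of 87 members did, with 2 members at an unadjusted p under 0.05 (2.30%, against 11.4% of all genes). DESeq2 called 354 genes and 0 members. The median log2 fold change was 0.02 (all genes 0.00). Rps19bp1, a nucleolar regulator of the deacetylase SIRT1 and no part of the ribosome, had 5.73 to 6.40 CPM after the fast (median 5.92) and 6.07 to 7.17 CPM on HFD (median 6.69), a log2 fold change of -0.16 ± 0.05 (edgeR adjusted p = 0.19). Rps10 had 2.41 to 3.03 CPM after the fast and 2.68 to 3.32 CPM on HFD (-0.18 ± 0.09, edgeR adjusted p = 0.44). Rpl3l had a log2 fold change of 0.32 ± 0.17 (edgeR adjusted p = 0.50).

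The effect of the fast was not shown to differ between the studies for any ribosomal protein gene. In a fit of all 37 mice, 523 of 30849 genes (1.70%) had a 24 h effect that differed from the 16 h effect by edgeR's test, and 0 of 87 members did. At an unadjusted p under 0.05 there were 2 members, Rpl3l and Rps23rg1, and DESeq2 called 665 genes and 0 members. For Rpl3l the difference of the log2 fold changes was 0.63 ± 0.24 (95% interval 0.14 to 1.11, edgeR adjusted p = 0.25), and 0 members were called without the columns set apart. For Rps23rg1 it was -0.76 ± 0.37 (edgeR adjusted p = 0.45), from 0.32 at 16 h and -0.43 at 24 h, and for Rps4l 0.18 ± 0.15 (0.79). The median over the members was -0.01, against 0.01 over all genes.

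Among genes that work with the ribosomal proteins, several translation factors, snoRNA host genes and assembly factors rose in the 24 h fast. Lists of such genes are described by counts, beside the 11.4% of all genes called. Of 20 translation factors and other products of TOP mRNAs, 3 rose and 0 fell: Eif4b (log2 fold change 0.30, edgeR adjusted p = 0.0019), which helps the helicase eIF4A, Eif3l (0.20) and Eef1d (0.23). The median of that list was 0.11. Of 10 snoRNA host genes tested, whose spliced RNAs also carry TOP tracts, 3 rose and 0 fell: Snhg6 (0.45), Snhg5 (0.43) and Snhg1 (0.35). Of 40 ribosome biogenesis genes 9 rose and 2 fell. Nip7 (0.28), Utp4 (0.24) and Ncl, which codes for nucleolin (0.20), had log2 fold changes above those of the other 6, and the small-subunit assembly factor Ltv1 (-0.20) and Heatr1 (-0.15) fell. Of 15 genes of RNA polymerase I, which transcribes ribosomal RNA, 0 were called by edgeR (2 at an unadjusted p under 0.05). In the kept columns, 4 translation factors, 4 snoRNA host genes, 10 biogenesis genes and 1 RNA polymerase I gene (Polr1a) rose and 1 biogenesis gene (Ltv1) fell, and Snhg1, Nip7 and Heatr1 were not called.

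Some genes that control the translation of TOP mRNAs rose in the 24 h fast. Of 25 genes of the LARP1 and mTORC1 list 7 rose and 0 fell, where 5.78% of all genes tested were called higher. The list was chosen with earlier results of these data known. Ddit4, which codes for the mTORC1 inhibitor REDD1, had 27.9 to 39.4 CPM on chow and 65.7 to 111.4 CPM after the fast, so that the groups did not overlap, and a log2 fold change of 1.64 ± 0.10 (edgeR adjusted p = 5.2e-09). Eif4ebp1, the translation repressor 4E-BP1, rose by 0.54, Sesn1, another mTORC1 inhibitor, by 0.49, Myc by 0.31, Larp1b by 0.27, Eef2k by 0.18 and Tsc1 by 0.17. The 24 h and 16 h effects differed for Ddit4 (1.41 ± 0.14, edgeR adjusted p = 1.2e-07) and Sesn1 (0.43 ± 0.09, edgeR adjusted p = 0.0062). Of 15 genes of ribosome quality control and hibernation 1 rose, Mdm2 (0.26, edgeR adjusted p = 5.7e-04). In the kept columns, 7 genes of the LARP1 and mTORC1 list rose, Larp4 among them and Eef2k not, and 2 of quality control did (Mdm2 and Gcn1). There 6.62% of all genes tested were called higher.

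Genes of oxidative phosphorylation and of the mitochondrial ribosome were counted in the same way for the 24 h fast, where 11.4% of all genes were called. Of 62 nuclear oxidative phosphorylation genes 0 rose and 1 fell (Ndufb2), with a median of 0.04. Of 77 mitochondrial ribosomal proteins 4 rose (Mrpl41, Mrps26, Mrpl9 and Mrpl2) and 1 fell (Mrps35), with a median of 0.02. In the kept columns these counts were 0 and 1, and 5 and 2, where 12.8% of all genes were called. At 16 h the only call in any of these lists was Heatr1, lower in fasted than in HFD mice (-0.20, edgeR adjusted p = 0.042). With the counts of each cage added up, 0 genes were called in that comparison.

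Some markers of non-neuronal cells were also called in the 24 h fast. Over all genes, 11.4% were called, and 1631 of 29011 were called lower. Of 5 microglial markers 3 fell (P2ry12, Tmem119 and Cx3cr1), with a summed level of 115.1 to 159.005 CPM on chow and 92.9 to 150 CPM after the fast. Of 5 markers of meninges and fibroblasts 3 fell (Col1a1, Col1a2 and Lum), from 42.6 to 189 CPM on chow to 41.3 to 91.4 CPM after the fast. Of 4 endothelial markers 2 fell (Flt1 and Cldn5). Of 6 astrocyte markers 2 fell (Aqp4 and Gja1), but the list as a whole did not. Its summed level was 3509 to 4461 CPM on chow (median 3929) and 3515 to 5077 CPM after the fast (median 4105). Mobp, from a list of 6 oligodendrocyte markers, and Pdgfra, from a list of 3 markers of their progenitors, rose. Of 7 neuronal markers 0 were called. No marker of these lists was at 0. The same numbers were called in these lists without the columns set apart. The part of these cells in the level of Rpl3l or of any other member was not tested.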

How the data were processed

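The deposited files hold raw counts per gene: per the submitters' notes the authors used bcl2fastq 2.20.0, STAR 2.7.3a on GRCm39 and R 4.1.3, and only uniquely mapped reads enter such gene counts. The strand column and annotation release are not given in the sources used here. Symbols came from GENCODE (56310 of 57010 genes matched), promoters from RefSeq (GRCm38.p6). The 5 columns of a mouse were summed. Tests used edgeR 4.0.16 (R 4.3.3) with filterByExpr, TMM factors, the quasi-likelihood F test and Benjamini-Hochberg adjustment over all genes, separately for each study, and 1 fit of all 37 mice for the difference of the fasting effects. P-values measure the spread between mice. At 16 h the diet was assigned by cage, and mice of a cage were treated as separate, with cage sums as an alternative. DESeq2 1.42.0, limma 3.58.1 and sva 3.50.0 gave alternatives. Scripts (Python 3.11.15) were tested on simulated data. Members, gene lists and markers were chosen with earlier results of these data known. Named by rule were members called by edgeR, the 3 lowest p-values per comparison and a fixed set of members, while Rps14, Rps28 and Rpl36 under the kept columns, and other genes named for their levels, were chosen after their values were seen. Leaving out the columns that stand apart was chosen after seeing the data. Lengths are coding lengths. Protein features were not analysed here, and results that need withheld items are not reported here.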

Additional observations from a re-analysis of the deposited data

Results flagged for a closer look

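In 9 of 190 groups of mice, a member's CPM in 1 mouse lay far from the others by Dixon's ratio of gap to range. Chance gives about 1 in 20 groups, so this number is near what chance gives.
In 16 h chow mice, Rpl7l1 was at 28.7 in mouse 1 against 30.5 to 31.1 in the others (ratio 0.747), Rps18 at 43.6 in mouse 5 against 39.3 to 40.5 (0.712), and Rps27rt at 0.900 in mouse 5 against 0.716 to 0.781 (0.647).
In 16 h fasted mice, Rpl5 was at 25.6 in mouse 10 against 27.1 to 27.9 (0.647), Rplp1 at 116.3 in mouse 10 against 123.95 to 128.3 (0.638), and Rps27l at 4.74 in mouse 8 against 5.52 to 5.84 (0.711).
In 16 h HFD mice, Rpl22 was at 48.5 in mouse 13 against 41.8 to 44.2 (0.642).
At 24 h, Rpl36al was at 0.799 in chow mouse 1452 against 0.408 to 0.604 (0.499), and Rpl10l had its only counts in fasted mouse 1433, at 0.0124 against 0 in the others (1).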

How the results depend on the processing

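The number of members called at 24 h went from 1 to 2 without the columns that stand apart, and to between 1 and 3 with each mouse also left out. With limma on the mean log2 CPM of columns, the members' median at 16 h was -0.26 for fasted against chow (all genes -0.25) and -0.32 for fasted against HFD (all genes -0.27), and 1 member, Rpl3l, differed between the fasting effects; the cause was not tested. When mitochondrial genes were left out of the total, the mean share of member counts at 16 h became 0.405% in chow, 0.415% in fasted and 0.407% in HFD mice. As a mean over columns it was 1.18% in 24 h chow and 1.13% in 24 h fasted mice. Without the columns of low counts or few genes it was 0.542% in 24 h chow and 0.573% in 24 h fasted mice. Without those that stand apart it was 0.515% in both. Leaving out each mouse moved the share between 0.716% and 0.801% in 24 h chow and between 0.744% and 0.794% in 24 h fasted mice, and the median between 0.03 and 0.06 for the 16 h fast, 0.00 and 0.05 for HFD against chow and -0.00 and 0.04 for fasted against HFD, with 0 members called. No result turned its called direction. Over all genes, limma called 1201 against 3307 at 24 h and 229 against 523 for the difference of the effects. For 16 h fasted against HFD, 65 calls (0.219% of genes) became 354 (DESeq2), 26 (no filter), 142 (clock time) and 0 (cage sums and limma), and 0.383% of genes were called with a surrogate variable. No paired analysis was possible because replicate numbers name different animals in each group. With the round of cages as a covariate, 89 genes were called for 16 h fasted against HFD, and 0 members in each 16 h comparison. Low counts limit Rpl3l and Rps23rg1.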
